A study of Mus musculus with 6 samples.

Results

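The genes described here are those named as solute carriers whose array signal in NCI-H2228 tumours reached a set level. They are all genes whose symbol begins with SLC and a number, apart from 7 carriers left out by name (SLC2A1, SLC2A3, SLC16A3, SLC7A11, SLC7A5, SLC7A1 and SLC3A2), and each had a mean log2 intensity of at least 6 over the 6 arrays. Each gene was read from the brightest of its probe sets that match no other gene. The arrays held 376 such symbols, of which 6 belonged to the exceptions and SLC16A3 was not analysed here. Of the remaining 370 genes, 143 reached the minimum, 41 lay between 4 and 6, and 186 lay below 4. The 143 genes were part of 10271 genes tested. Just inside the minimum lay SLC25A33 at 6.05 and SLC9A3-AS1 at 6.15, and just outside it SLC6A20 at 5.94 and SLC35F6 at 5.91.

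NCI-H2228 is an established human lung adenocarcinoma line driven by the fusion kinase EML4-ALK, and CH5424802, later named alectinib, is an inhibitor of the ALK kinase. The cells had been grown under the skin of SCID mice, which lack functional lymphocytes. Mice were given vehicle (0 mg/kg), 4 mg/kg or 20 mg/kg CH5424802 by mouth, and the tumours were removed 6 h later, with 2 arrays in each of the 3 groups. All groups share the line, the host strain and the single time point. The labels do not state that the arrays of a group came from separate animals, so the p-values reflect array-to-array spread only, part or all of which may be technical. The labels name the mouse as the organism, but the array carries probes for human genes.

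All 10 epithelial and lung adenocarcinoma markers examined, including NKX2-1 at a mean log2 intensity of 11.65 and EPCAM at 14.14, were above 6. Their summed intensity ran from 79101 to 87365 in the vehicle arrays, from 84135 to 85281 at 4 mg/kg and from 72678 to 78205 at 20 mg/kg, and the part of this difference in the results was not tested. From vehicle to 20 mg/kg the means of KRT18 (13.84 to 12.30), KRT8 (12.26 to 11.39) and KRT7 (12.25 to 11.33) fell. Those of EPCAM (13.78 to 14.28), CDH1 (13.81 to 14.04) and NKX2-1 (11.61 to 11.71) rose. The other markers fell by less than the keratins. Leukocyte markers were near the array floor of 2.19, with 0 of 4 measured at 4 or more and sums from 26.3 to 31. Of 4 endothelial markers, PECAM1 (8.65) and KDR (6.58) were above 4 while VWF and CDH5 were at or near the floor, and the sums ran from 446 to 552 over all arrays. Of 7 fibroblast markers 4 were above 4, namely COL1A1 (15.04), COL1A2 (10.92), COL3A1 (10.27) and DCN (5.98). LUM, PDGFRB and THY1 were at or near the floor, and the sums ran from 35256 to 39715. In such bulk tissue, fewer cells of a type and less RNA per cell cannot be told apart. Host cells here are mouse cells, which probes for human genes may not read. Low levels of the leukocyte, endothelial and fibroblast markers therefore do not measure the number of host cells.

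Solute carriers are membrane proteins that move nutrients, ions, vitamins, nucleotides and metabolites across the cell surface and the membranes of organelles. They are grouped into numbered families by sequence, and members of a family often share a type of substrate. Most SLC25 proteins serve the inner mitochondrial membrane and most SLC35 proteins the Golgi and endoplasmic reticulum. SLC30 and SLC39 proteins carry zinc out of and into the cytosol. In lung epithelium they include the phosphate carrier SLC34A2 of alveolar type II cells. The mRNA level of a carrier is not a measure of transport.

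At 20 mg/kg, 2 solute carrier genes changed past the test against vehicle: the iron exporter SLC40A1 (ferroportin) rose 3.37-fold and the amino acid carrier SLC6A14 fell to 0.437 of the vehicle level. This is 1.4% of the 143 genes, against 4.33% of all genes tested that passed in either direction (limma, adjusted p under 0.05) and 4.98% of the 8457 tested genes with a mean of at least 6. Most genes with separated arrays did not pass: 40 genes (28%) had both 20 mg/kg arrays above both vehicle arrays, against 24.5% of all genes, and 40 (28%) had them below, against 25.9%. These shares were near the background. The median log2 change of the 143 genes was 0.00, as it was for all tested genes, and at an unadjusted p under 0.05 there were 39 genes, 27.3% against 24.2% of all. By these counts the set had no common direction. The number past the test depended on the scaling. It was 24 with a further quantile normalization (16.8%, against 15.6% of all genes) and 34 with arrays centred on their medians (23.8% against 19.1%). It also depended on the vehicle and 20 mg/kg arrays, but leaving out 1 of them leaves 1 array in that group. Without vehicle replicate 1 the log2 changes of SLC40A1 and SLC6A14 were 1.84 and -1.11. Without vehicle replicate 2 they were 1.67 and -1.28.

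The largest differences lay in a few genes of several classes. A difference of at least 2-fold above vehicle was seen for 9 genes (6.29%, against 3.72% of all genes tested and 4.14% of those at 6 or more), and at least 2-fold below for 7 genes (4.9%, against 2.12% and 2.36%). The difference in shares was not tested, and 2 of the 9 higher genes, SLC10A7 and SLC16A4, had vehicle means below 6 and entered the set through the treated arrays in which they are high, so these shares support nothing about the set. The arrays of the 2 groups were apart for all 16 of these genes. Only SLC40A1 and SLC6A14 among them passed the test. The spread between the vehicle arrays bears on the others: vehicle replicate 2 lay below replicate 1 for 8 of the 9 higher genes and above it for 6 of the 7 lower genes. Without vehicle replicate 1 the counts were 13 higher and 7 lower, and without vehicle replicate 2 they were 8 and 4. The array's control for 18S ribosomal RNA was also brighter with vehicle (intensities of 1713 and 4058) than in any treated array (374.2 to 637.1), and its part in the result was not tested.

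**Figure D1:**
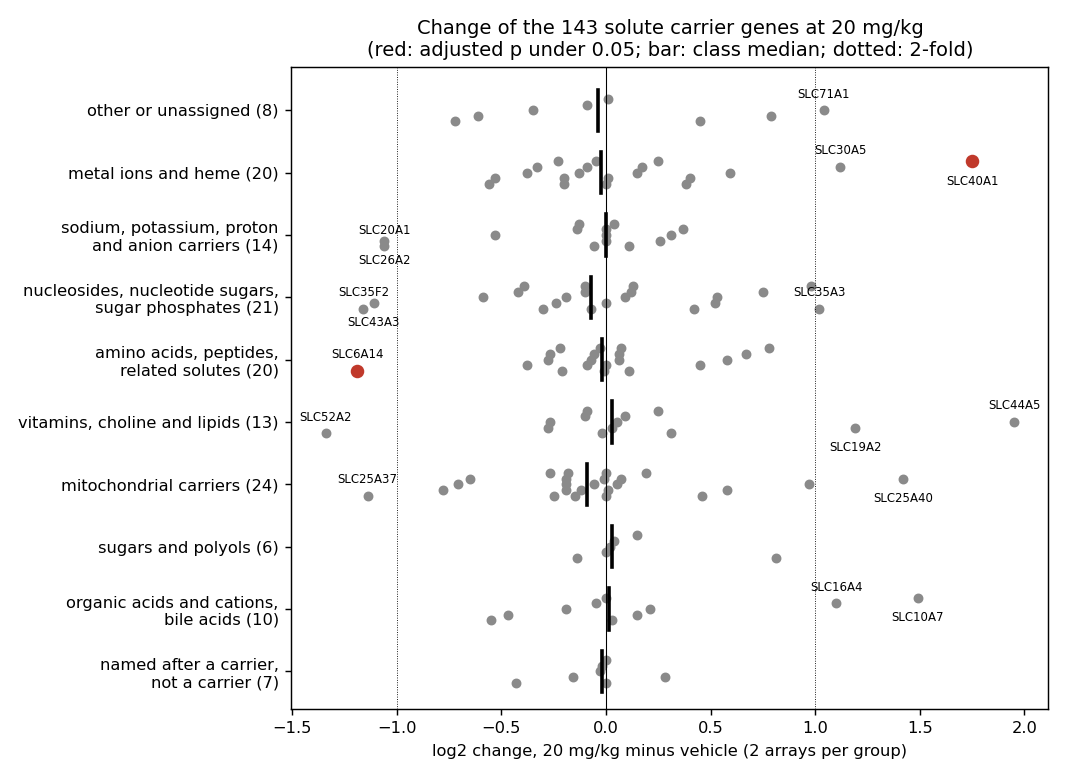
Log2 change at 20 mg/kg against vehicle for each of the 143 solute carrier genes (points), arranged by substrate class, with the number of genes in brackets and the class median as a bar. Class medians lay between -0.09 and 0.03, while single genes ran from -1.34 (SLC52A2) to 1.95 (SLC44A5), and the 2 red points, SLC40A1 and SLC6A14, were those past the test.

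Among the 20 carriers of metal ions and heme, SLC40A1 was the gene past the test. Ferroportin moves ferrous iron out of the cell and is the known route of iron export. Its log2 intensity was 11.14 and 10.97 in the arrays of the vehicle group, 11.88 and 12.04 at 4 mg/kg, then 12.82 and 12.79 at 20 mg/kg. The 3 groups did not overlap and lay in the order of dose. The change from vehicle to 20 mg/kg was 1.75 ± 0.09 (log2, SE, n = 2 arrays per group; adjusted p = 0.0141, limma). At 4 mg/kg it was 0.91 ± 0.09 (adjusted p = 0.114), and from 4 to 20 mg/kg 0.84 ± 0.09 (adjusted p = 0.0812), neither of which passed. The call at 20 mg/kg missed the threshold without vehicle replicate 2 (adjusted p = 0.0524) and without either 20 mg/kg array (0.0933 and 0.0864), and also without the level filter of the fit (0.0527), while the change itself stayed between 1.67 and 1.84. The gene's other probe set lay at 3.27, near the floor, and gave no second reading.

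The other iron, zinc, copper and magnesium carriers were spread to both sides of vehicle, with 6 of these 19 genes apart above it, 6 apart below it and a median change of -0.05. SLC30A5, which carries zinc into the early secretory pathway, read 10.13 and 9.33 with vehicle, 10.84 and 11.01 at 4 mg/kg, then 10.86 and 10.83 at 20 mg/kg. Both treated groups lay above vehicle and close to each other. Its change at 20 mg/kg of 1.12 ± 0.30 did not pass (adjusted p = 0.138), and the gene's probe sets differed, with -0.18, 0.31 and 1.24 for the next 3 in brightness. Of the 5 genes of the SLC30 family, 3 were apart above vehicle and 0 below, with a median change of 0.25, a count too small to set against the shares of 24.5% and 25.9% over all genes. Of the 9 genes of the SLC39 family, 2 were apart above and 4 below, with a median of -0.09. SLC39A9, at a mean of 11.88, lay 0.15 log2 units above vehicle without passing, and SLC39A1 read 10.21 in every array. The iron importer SLC11A2 read 8.86 and 9.52 in the vehicle arrays and 8.96 in both arrays at 20 mg/kg, so these groups overlapped. Its other bright probe set gave 0.34, with 8.87 and 9.22 at 20 mg/kg above vehicle at 8.63 and 8.77, so the probe sets disagree in direction.

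Of the 20 carriers of amino acids, peptides and related solutes, SLC6A14 was the gene past the test. SLC6A14 imports neutral and cationic amino acids together with sodium and chloride. Its log2 intensity was 11.98 and 11.81 with vehicle, 11.98 and 12.08 at 4 mg/kg, then 10.76 and 10.64 at 20 mg/kg. Both 20 mg/kg arrays were more than 1 log2 unit below all others, while the 4 mg/kg arrays were at the vehicle level or just above it. The log2 change was -1.19 ± 0.09 against vehicle (adjusted p = 0.0228) and -1.33 ± 0.09 against 4 mg/kg (adjusted p = 0.0462). Between 4 mg/kg and vehicle it was 0.13 ± 0.09 (adjusted p = 0.545). The call against vehicle held without vehicle replicate 1 (adjusted p = 0.0386) but missed the threshold without vehicle replicate 2 (0.0654), without either 4 mg/kg array (0.0682 for each) and without either 20 mg/kg array (0.106 and 0.103), as it did without the level filter (0.0804) or with only the 4 arrays compared (0.0682). The call against 4 mg/kg missed it in each of the 6 fits that left out 1 array, with adjusted p from 0.064 to 0.191, without the level filter (0.153), with the 4 arrays compared (0.0982) and in the fit of next brightest probe sets (0.056), where the gene kept its only probe set among fewer genes tested. Leaving out an array of the group not compared repeats the test on the 4 compared arrays, so these fits are not separate tests. The gene had 1 probe set.

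The amino acid carriers had a median change of -0.02, with 5 genes apart above vehicle and 3 apart below. Over all tested genes these shares were 24.5% and 25.9%. SLC38A2, a sodium-coupled importer of glutamine and alanine, read 13.52 and 13.12 with vehicle, 14.06 and 13.98 at 4 mg/kg, then 13.80 and 13.73 at 20 mg/kg. Both treated groups lay above vehicle and apart from it, without passing the test, but the gene's other probe sets gave -0.13 and -0.15 at 20 mg/kg in place of 0.45. SLC38A1, of similar function, stayed between 11.81 and 12.18 in all arrays on its brightest probe set. Its next probe set gave -0.38 at 20 mg/kg, with 11.54 and 11.40 below vehicle at 11.66 and 12.05. SLC15A2, an importer of short peptides, read 7.29 and 8.12 with vehicle and 8.61 and 8.35 at 20 mg/kg, a difference of 0.78 ± 0.39 that did not pass (adjusted p = 0.354). The taurine carrier SLC6A6 went from 9.99 and 10.31 with vehicle through 10.39 and 10.79 to 10.84 and 10.79, with groups that did not overlap with vehicle. The glutamine carrier SLC1A5 was at 8.06 in all 6 arrays, to 2 decimals.

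Among the 13 carriers of vitamins, choline and lipids were the extremes in both directions, although the class median was 0.03. The test was passed by 0 genes, against 4.33% of all tested. SLC44A5 belongs to the choline transporter-like family. It read 8.46 and 7.64 with vehicle, 9.53 and 9.66 at 4 mg/kg, then 9.94 and 10.06 at 20 mg/kg. The groups were apart in the order of dose, with the vehicle arrays 0.82 log2 units from each other. The change at 20 mg/kg was 1.95 ± 0.31 (3.88-fold, adjusted p = 0.0639), and the gene's other 3 probe sets gave 1.06, 0.46 and 1.33. It passed without vehicle replicate 1 (2.36, adjusted p = 0.0218) and missed the threshold in the other 5 fits that left out 1 array. It also passed with the mean of its probe sets (adjusted p = 0.0443), the stricter level filter (0.0443), quantile normalization (0.013), centred arrays (0.00154) and without tied genes (0.0328).

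SLC52A2, a riboflavin importer, read 11.16 and 11.68 with vehicle, 10.96 and 11.18 at 4 mg/kg, then 10.03 and 10.12 at 20 mg/kg. The 20 mg/kg arrays lay below all others, while 4 mg/kg overlapped with vehicle. The change at 20 mg/kg was -1.34 ± 0.21 (adjusted p = 0.0639), with -0.68 in the gene's other bright probe set. It passed without vehicle replicate 1 (-1.60, adjusted p = 0.0407), with the stricter filter (0.0449), quantile normalization (0.00865), centred arrays (0.0014) and without tied genes (0.0334). The thiamine importer SLC19A2 read 7.80 and 7.84 with vehicle, 7.84 and 8.56 at 4 mg/kg, then 8.95 and 9.06 at 20 mg/kg, so the higher dose lay above the rest. Its change of 1.19 ± 0.27 did not pass (adjusted p = 0.106). It passed after quantile normalization, after centring, and in the fit of vehicle and 20 mg/kg arrays alone. That last fit called 2 of the 143 genes (1.4%, against 1.32% of all tested), SLC19A2 and SLC40A1. Leaving out either 4 mg/kg array gives the same test for this comparison, not a further one. SLC44A1, the broadly expressed choline transporter of the SLC44 family, lay 0.31 log2 units above vehicle levels of 11.05 and 10.83, also without passing, and its other probe sets above the minimum gave 0.02 and -0.10.

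**Figure D2:**
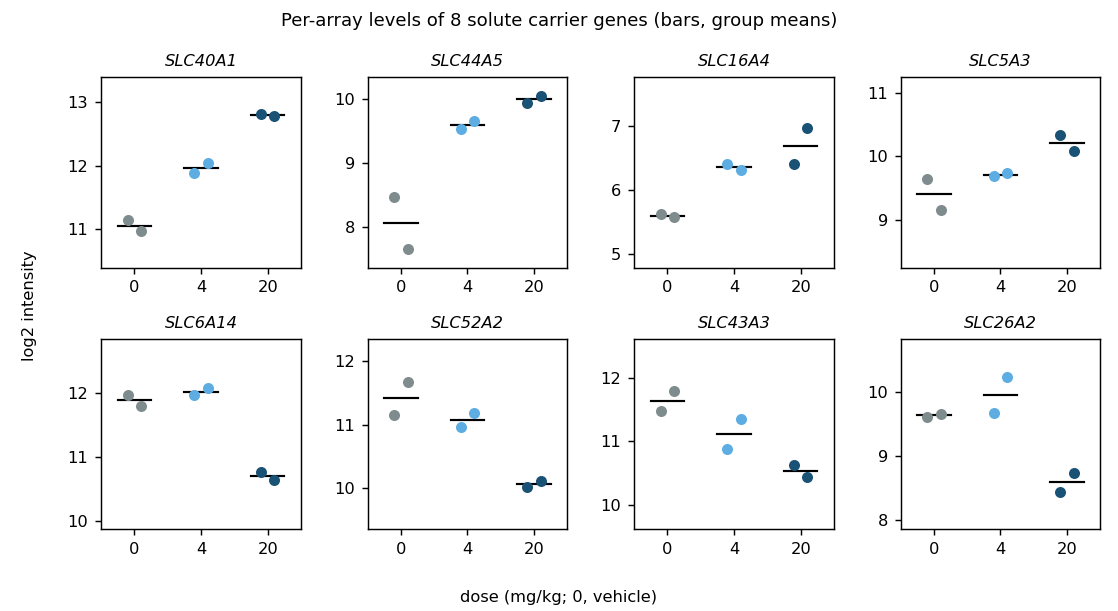
Log2 intensity in each of the 6 arrays (points) by dose in mg/kg for 8 solute carrier genes, with group means as bars and a separate vertical range for each gene. SLC40A1 and SLC44A5 stand higher at each dose, while SLC6A14 and SLC26A2 are at or above the vehicle level at 4 mg/kg and below it at 20 mg/kg.

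The 24 genes of the SLC25 family were classed here as mitochondrial carriers. Their median change was -0.09 at 20 mg/kg, with 5 apart above vehicle, 8 apart below and 0 past the test. Of all tested genes, 24.5% were apart above vehicle, 25.9% apart below and 4.33% past the test. SLC25A37 (mitoferrin 1) brings iron into mitochondria. It read 10.15 and 10.30 with vehicle, 9.04 and 9.68 at 4 mg/kg, then 9.03 and 9.15 at 20 mg/kg. All treated arrays lay below both vehicle arrays. Its change of -1.14 ± 0.25 did not pass (adjusted p = 0.1), and the next 3 probe sets gave -0.87, -1.29 and -1.04. SLC25A39 and SLC25A40 are related carriers required for glutathione in mitochondria, and they stood on opposite sides of vehicle. SLC25A40 read 7.98 and 7.19 with vehicle, 8.90 and 9.24 at 4 mg/kg, then 8.87 and 9.14 at 20 mg/kg, a difference of 1.42 ± 0.33 at the higher dose (adjusted p = 0.111). Its other probe set above the minimum gave 0.01. SLC25A39 read 11.39 and 11.68, then 11.15 and 11.24, then 10.58 and 10.94, with groups apart in the order of dose and a change of -0.78 ± 0.17 (adjusted p = 0.104). The adenine nucleotide carrier SLC25A5 lay between 13.94 and 14.24 in all arrays and the phosphate carrier SLC25A3 between 13.53 and 13.80. SLC25A36, a pyrimidine nucleotide carrier, read 10.87 and 11.03 with vehicle, 10.83 and 11.00 at 4 mg/kg, then 11.41 and 11.40 at 20 mg/kg, so that the higher dose alone stood above (0.46 ± 0.09 against vehicle, adjusted p = 0.085). Its other probe sets above the minimum gave 1.01 and 0.75.

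Of the 21 carriers of nucleosides, nucleotide sugars and sugar phosphates, 7 were apart above vehicle at 20 mg/kg, 8 apart below and 0 past the test, with a median of -0.07. The background over all tested genes was 24.5% apart above, 25.9% apart below and 4.33% past the test. SLC35A3, which brings UDP-N-acetylglucosamine into the Golgi, read 8.97 and 8.41 with vehicle, 9.75 and 9.88 at 4 mg/kg, then 9.71 and 9.70 at 20 mg/kg. Both doses lay above vehicle at much the same height, and the change of 1.02 ± 0.21 at the higher dose did not pass (adjusted p = 0.0961), with 1.02 and -0.06 in its other probe sets. SLC43A3, a purine nucleobase carrier, read 11.48 and 11.79 with vehicle, 10.88 and 11.34 at 4 mg/kg, then 10.63 and 10.43 at 20 mg/kg. Its groups were apart in falling order of dose, with a change of -1.11 ± 0.22 (adjusted p = 0.0886) and -0.87 in its other probe set. SLC35F2 read 9.21 and 9.79, then 8.63 and 9.20, then 8.25 and 8.43, a change of -1.16 ± 0.31 (adjusted p = 0.135). SLC35F5 read 10.57 and 9.83 with vehicle and 11.18 and 11.19 at 20 mg/kg, which did not pass either. The nucleoside importer SLC28A3 read 6.94 and 6.76, then 7.34 and 7.40, then 7.31 and 7.24, with both doses above vehicle, but its other probe set gave -0.13 at 4 mg/kg and -0.09 at 20 mg/kg.

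The 14 carriers of sodium, potassium, protons and anions had a median change of 0.00, with 3 apart above vehicle, 4 apart below and 0 past the test. Among all tested genes the shares were 24.5%, 25.9% and 4.33%. The sodium-phosphate carrier SLC34A2 lay between 13.84 and 14.05 in all arrays, and the potassium-chloride carrier SLC12A7 between 12.01 and 12.56. SLC20A1, another sodium-phosphate importer, read 10.92 and 11.48 with vehicle, 10.57 and 11.28 at 4 mg/kg, then 9.99 and 10.29 at 20 mg/kg. The higher dose lay below all other arrays, and the change of -1.06 ± 0.35 did not pass (adjusted p = 0.192). The sulfate carrier SLC26A2 read 9.62 and 9.66 with vehicle, 9.67 and 10.25 at 4 mg/kg, then 8.44 and 8.73 at 20 mg/kg. It shared with SLC6A14 a 20 mg/kg level below all other arrays and a 4 mg/kg level above the vehicle mean, but its changes of -1.06 ± 0.24 against vehicle (adjusted p = 0.108) and -1.38 ± 0.24 against 4 mg/kg (adjusted p = 0.152) did not pass, and its other probe sets gave -0.49 and -0.31 against vehicle. The sodium bicarbonate carrier SLC4A4 stood at 10.88 and 10.78 with vehicle, 11.32 and 11.44 at 4 mg/kg, then 11.30 and 11.10 at 20 mg/kg.

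Of the 10 carriers of organic acids, organic cations and bile acids, 4 were apart above vehicle at 20 mg/kg, 2 below and 0 past the test. For all tested genes the shares were 24.5%, 25.9% and 4.33%, and the class is small. SLC10A7, a relative of the bile acid carriers, read 5.85 and 5.31 with vehicle, 7.02 and 6.86 at 4 mg/kg, then 6.70 and 7.43 at 20 mg/kg. SLC16A4, of the monocarboxylate carrier family, read 5.62 and 5.57, then 6.41 and 6.32, then 6.41 and 6.98. For both genes every treated array lay above vehicle, and the changes of 1.49 ± 0.34 (adjusted p = 0.107) and 1.10 ± 0.21 (adjusted p = 0.0857) did not pass. Both lay below 6 with vehicle and reached the minimum through the treated arrays. SLC22A23 read 10.30 and 10.52 with vehicle and 10.01 and 9.70 at 20 mg/kg, and SLC17A5, which takes sialic acid out of lysosomes, overlapped with vehicle.

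Sugar carriers other than the exceptions were few. Of 6, the myo-inositol importer SLC5A3 read 9.65 and 9.15 with vehicle, 9.69 and 9.73 at 4 mg/kg, then 10.34 and 10.08 at 20 mg/kg. Its groups were apart in the order of dose, and its change of 0.81 ± 0.21 did not pass (adjusted p = 0.127). SLC2A9, which carries urate, differed by -0.14, and SLC50A1 by 0.04. Of the 8 genes with another or no assigned substrate, 3 were apart above and 3 below, against 24.5% and 25.9% of all genes. SLC71A1 read 9.48 and 8.38 with vehicle, 9.84 and 10.01 at 4 mg/kg, then 9.85 and 10.10 at 20 mg/kg, and its difference of 1.04 ± 0.42 was smaller than the gap between the vehicle arrays (adjusted p = 0.252). SLC60A1 differed by 0.79 (adjusted p = 0.19), with 0.42 and -0.13 in its other probe sets above the minimum. SLC67A1 read 10.07 and 10.32, then 9.79 and 9.90, then 9.47 and 9.49, in falling order of dose, with -0.72 ± 0.10 at 20 mg/kg and an adjusted p of 0.0559. It passed in 6 alternatives, with adjusted p from 0.0053 (centred arrays) to 0.0481 (mean of probe sets), one of them without vehicle replicate 1 (0.038).

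The rule on symbols also took in 7 genes that are not carriers, such as antisense transcripts and SLC4A1AP. Their median change at 20 mg/kg was -0.02, with 1 apart above, 1 below and 0 past the test. These shares over all tested genes were 24.5%, 25.9% and 4.33%. SLC2A4RG, a regulator named after a glucose carrier, read 9.96 and 10.08 with vehicle and 9.61 and 9.56 at 20 mg/kg. SLC4A1AP read 7.97 and 7.95 with vehicle, 8.09 in both 4 mg/kg arrays, then 8.30 and 8.17 at 20 mg/kg. SLC38A2-AS1 stayed between 8.22 and 8.34. Equal values are frequent in these data: 9 of the 143 genes read the same in all 6 arrays (within 1e-06 log2 units), among them SLC39A1, SLC34A3 and SLC25A22, as did 531 of all tested genes.

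**Figure D3:**
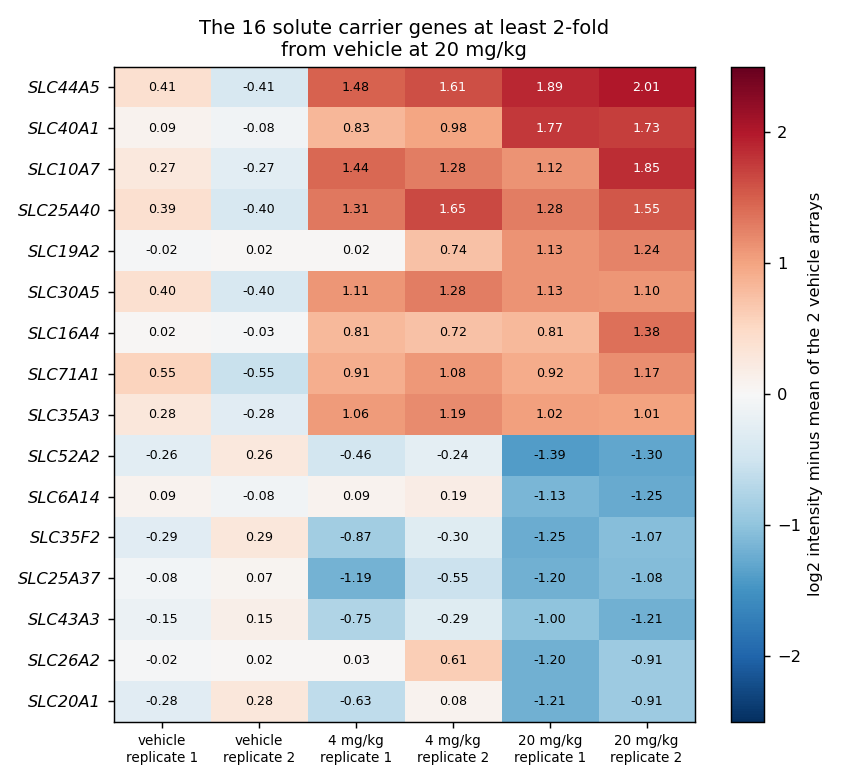
Log2 intensity of each array minus the mean of both vehicle arrays (colour and printed value) for the 16 solute carrier genes that lay at least 2-fold from vehicle at 20 mg/kg. The vehicle columns show the spread within that group, the 4 mg/kg columns are near the 20 mg/kg columns for SLC25A40, SLC30A5 and SLC35A3, and for SLC6A14 and SLC26A2 they are at or above vehicle.

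At 4 mg/kg, 0 of the 143 genes passed the test against vehicle, against 0.0584% of all genes tested, and 19 (13.3%) had an unadjusted p under 0.05, against 17% of all (limma). With centred arrays 10 passed (6.99%, against 7.46% of all genes), with quantile normalization 1 (0.699% against 1.08%), and without vehicle replicate 1, 7 (4.9% against 4.62%). Both 4 mg/kg arrays lay above both vehicle arrays for 34 genes (23.8%, against 22.8% of all) and below them for 23 (16.1%, against 14.8%). The lower dose stood at least 2-fold above vehicle for 6 genes (4.2%, against 2.64% of all and 3.04% of those at 6 or more) and at least 2-fold below for 0. These 6 were SLC44A5 (1.54), SLC25A40 (1.48), SLC10A7 (1.36), SLC30A5 (1.19), SLC35A3 (1.13) and SLC12A2 (1.05), all as log2 changes. The next brightest probe sets of SLC30A5 and SLC25A40 gave -0.24 and 0.00, so their difference rests on the probe set, and SLC10A7 lay below 6 with vehicle. In SLC44A5 the other probe sets gave 0.32, 0.24 and 0.80, and in SLC35A3 0.84 and -0.10, all less than 2-fold. SLC12A2, the sodium-potassium-chloride importer, read 10.66 and 10.10 with vehicle, 11.25 and 11.61 at 4 mg/kg, then 10.55 and 10.72 at 20 mg/kg. On this probe set the lower dose lay above vehicle and the higher dose overlapped with it. On the gene's other bright probe set (mean 10.64 against 10.82) the change was 0.06 at 4 mg/kg and -0.64 at 20 mg/kg, with both 20 mg/kg arrays below vehicle, so the probe sets disagree. Without vehicle replicate 1 the 2-fold count was 9, and without replicate 2 it was 3. The 5 smallest p-values belonged to SLC40A1, SLC28A3 (0.52 ± 0.07, adjusted p = 0.15), SLC4A4 (0.55 ± 0.10, 0.166), SLC71A2 (0.74 ± 0.13, 0.166) and SLC35A3 (1.13 ± 0.21, 0.168). On the probe sets used, all 5 were higher than vehicle in both arrays. The next brightest probe set gave -0.13 for SLC28A3 and 0.00 for SLC4A4 in this comparison. Both doses were compared with the same vehicle arrays, so likeness between the doses is not independent.

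Between the doses, SLC6A14 was the 1 gene past the test (0.699% of the 143, against 0.37% of all genes), lower at 20 mg/kg. With quantile normalization of the arrays the calls were 3 higher and 2 lower (3.5%, against 3.21% of all genes), and with arrays centred on their medians 3 higher and 4 lower (4.9% against 4.81%). At an unadjusted p under 0.05 there were 16 genes, 11.2% against 13.4% of all. SLC26A2 and SLC6A14 were the 2 genes at least 2-fold lower at 20 than at 4 mg/kg (1.4%, against 1.3% of all tested), and 0 were at least 2-fold higher. After them, the smallest p-values were those of SLC40A1, SLC25A36 (0.49 ± 0.09, adjusted p = 0.156) and SLC52A2 (-0.99 ± 0.21, adjusted p = 0.198). The last is 1.99-fold lower at the higher dose.

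All 3 groups were apart in rising order of dose for 7 genes (4.9%, against 4.61% of all tested) and in falling order for 9 (6.29%, against 5.24%), shares close to the background. The rising genes in this sense were SLC40A1, SLC44A5, SLC35A5, SLC16A4, SLC5A3, SLC6A6 and SLC4A1AP. The falling ones were SLC25A1, SLC25A11, SLC25A39, SLC35F2, SLC43A3, SLC48A1, SLC4A11, SLC66A2 and SLC67A1. Where the next brightest probe set was above 6, it kept the direction at both doses for SLC44A5, SLC5A3, SLC25A11 and SLC43A3. It did not show the order for SLC4A11 (0.26 at 4 mg/kg and -0.06 at 20 mg/kg against vehicle) or SLC4A1AP (0.02 and -0.04). The nearest arrays of neighbouring groups were less than 0.05 log2 units apart for 3 of the rising genes (SLC16A4, SLC5A3 and SLC6A6) and 4 of the falling ones (SLC25A1, SLC35F2, SLC48A1 and SLC66A2), so these orders rest on very small gaps. Of the rising 7, SLC40A1 alone passed the test at 20 mg/kg, and of the falling 9, 0 passed.

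Other genes of membrane transport were read for comparison: subunits of the sodium pump, organic anion carriers of the SLCO family, chaperones and arrestins that act on carriers, regulators of ion carriers and the metal response. Of 32 listed, 25 could be tested. At 20 mg/kg 0 rose and 1 fell, against 4.33% of all tested genes that passed in either direction. This gene, SLCO3A1, an organic anion carrier, read 8.92 and 9.07 with vehicle, 8.68 in both 4 mg/kg arrays, then 8.07 and 8.11 at 20 mg/kg (-0.91 ± 0.06, adjusted p = 0.021). At 4 mg/kg against vehicle, and between the doses, 0 passed. Their median change at 20 mg/kg was -0.14. The metallothionein MT1X, a metal-binding protein, read 11.98 and 12.64 with vehicle and 11.46 and 11.21 at 20 mg/kg, which did not pass (adjusted p = 0.137). ARRDC4, an arrestin that takes glucose carriers off the membrane, read 8.19 and 7.85 with vehicle and 9.14 and 9.06 at 20 mg/kg, also without passing (adjusted p = 0.0566).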

How the data were processed

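Per the submitters' processing notes, the deposited intensity table was computed by GCRMA under R 2.10.0. Its values are linear. GCRMA adjusts for probe-specific background, brings the arrays to a common distribution and fits probe sets by median polish, a step that can leave arrays with equal values. Changes near the lowest intensity, 4.578, are understated.

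Intensities were turned to log2 without an added constant. Symbols were those of the platform annotation and may be outdated. Of 54675 probe sets, 41097 match 1 gene, 1801 several and 11777 none in that table. Genes with a mean log2 value of at least 4 in their brightest single-gene probe set were tested (10271 of 19775). Signals of different probe sets are not comparable as amounts. A limma fit (version 3.58.1, R 4.3.3, eBayes) over all 6 arrays gave 3 two-sided contrasts, with Benjamini-Hochberg adjustment over all tested genes and a threshold of 0.05. The step was tested on simulated data. The fit had 3 residual and 0.723 prior degrees of freedom. Each ± is limma's moderated SE, pooled over the groups. The number of arrays limits the precision. Groups were called apart where every array of a group lay above, or every one below, those of the other.

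Named genes are those past the test, in each substrate class the 2 brightest and the 2 with the largest change among genes with arrays apart, and the 5 smallest p-values per comparison. Others, among them genes past 2-fold, in dose order or of known function, were named after their values were seen. The gene set, the lists and the classes were chosen with earlier results of these data known. Alternatives were the probe set, 16 added before the log, the level filter, the normalization, ties, the arrays fitted, the replicate number as a block and leaving out each array. No sequences are printed, since the reference tables at hand were of the mouse.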

Additional observations from a re-analysis of the deposited data

How the results depend on the processing

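The number of solute carrier genes past the test depended on the settings. For 20 mg/kg against vehicle it was 2 (1.4%, against 4.33% of all genes tested). The next brightest probe set gave 1 of 102 genes (0.98% against 2.86%), and the mean of probe sets 5 of 136 (3.68% against 5.34%). It was 0 without a level filter (0.288% of all genes) and 5 with the stricter filter at 6 (3.5% against 7.63%). Quantile normalization gave 24 (11 higher, 13 lower, 16.8% against 15.6%) and centred arrays 34 (17 and 17, 23.8% against 19.1%). Without genes tied in all groups it was 7 of 134 (5.22% against 8.41%). The number also changed with 1 vehicle or 1 20 mg/kg array left out, in fits that leave 1 array in that group. For 4 mg/kg against vehicle it was 0 (0.0584% of all genes), and 1 with quantile normalization (0.699% against 1.08%). With centred arrays it was 10 (8 higher, 2 lower, 6.99% against 7.46%). Leaving out vehicle replicate 1 changed this number as well. Between the doses it was 1 (0.699%, against 0.37% of all genes). It was 0 with the next brightest probe set (0.276% of all), without a filter (0.0405%) and with only the 4 arrays compared (0%). Quantile normalization gave 5 (3.5% against 3.21%) and centred arrays 7 (4.9% against 4.81%). The call was also lost with any 1 array left out. Centring moved the median of all genes by -0.10 at 4 mg/kg against vehicle and by 0.07 between the doses.

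The replicate numbers do not mark pairs in the labels. Deviations of same-numbered arrays correlated at 0.146 (vehicle and 4 mg/kg), -0.118 (vehicle and 20 mg/kg) and 0.127 (both doses). With the replicate number as a replicate block, 0 of the 143 genes passed for 20 mg/kg against vehicle, against 0.905% of all genes tested. For 4 mg/kg against vehicle and between the doses 0 passed, of the 143 and of all genes. The adjusted p against vehicle was then 0.0527 for SLC40A1 and 0.0622 for SLC6A14, and 0.124 for SLC6A14 between the doses.

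Of the alternative values for 31 changes of single genes, 437 kept direction and side of the threshold, 51 passed it newly, 23 no longer passed, and 3 turned direction, all with the next brightest probe set: SLC30A5 (-0.18) and SLC4A1AP (-0.04) at 20 mg/kg and SLC28A3 (-0.13) at 4 mg/kg. The cause of the turned directions was not tested. With the settings used, only SLC40A1 and SLC6A14 against vehicle at 20 mg/kg and SLC6A14 between the doses had passed. The 23 values that no longer passed were therefore all alternatives of these changes. Values that passed in neither fit are counted among the 437. A minimum of 4 in place of 6 made the set 184 genes. The alternative for gene symbols was not run.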

Other observations

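Among the 41 solute carrier genes with a mean log2 intensity between 4 and 6, SLC39A3, a zinc importer, fell at 20 mg/kg. It read 5.88 and 5.94 with vehicle, 5.50 and 5.59 at 4 mg/kg, then 5.23 and 5.26 at 20 mg/kg. The groups were apart in falling order of dose, with a log2 change of -0.67 ± 0.04 at 20 mg/kg (limma, adjusted p = 0.021) and -0.37 ± 0.04 at 4 mg/kg (adjusted p = 0.14). SLC67A1-AS, an antisense transcript of the same range, read 6.13 and 6.10 with vehicle, 5.81 in both 4 mg/kg arrays, then 5.52 and 4.49 at 20 mg/kg, a change of -1.11 ± 0.38 that did not pass (adjusted p = 0.199).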
